A study of Mus musculus with 10 samples.

Results

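Bone morphogenetic proteins (BMPs) are secreted ligands of the TGF-beta superfamily, which signal through serine/threonine kinase receptors and Smad proteins. In the mouse embryo at gastrulation, Bmp4 from the extraembryonic ectoderm acts on the neighbouring epiblast, and secreted antagonists of BMP and Nodal signalling limit where such signals reach along the body axes. The 10 genes described here were chosen by name: the ligands Bmp2, Bmp4 and Bmp7, the antagonists Chrd, Nog, Fst and Grem1, which bind BMPs or activin outside the cell, and Cer1, Lefty1 and Lefty2, which act against Nodal. They are 10 of 33846 genes with a measured cytosine position inside the gene or within 2000 bp of either end, and all 10 had such positions, 958 in total.

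The series holds DNA of mouse embryos at embryonic day 7.5, labelled as 5 control and 5 arsenic samples and measured by reduced representation bisulfite sequencing. In this assay, short fragments of the CpG-rich part of the genome are sequenced after bisulfite treatment, which leaves methylated cytosines as C and turns unmethylated ones into T. The labels give no strain, sex, arsenic dose, time or route of exposure, exposed animal (parent or embryo) or number of embryos per sample, and the assay does not measure expression, so the tissue could not be checked by its marker transcripts. The deposited counts come in 10 sets, here called library columns, which carry only the numbers 1 to 10 and were not tied to a sample or a group. No comparison of arsenic with control was therefore made, and the values below are given over the 10 columns as lowest, median and highest, with no test of a difference between groups of columns. Calls summed over all measured positions ranged from 73509873 to 127743904 per column, and each position had at least 10 reads in every column.

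Methylation was measured apart at each gene end, over 2000 bp on both sides, and in the body, the inside of the gene further than 2000 bp from both ends. A level is the share of methylated calls among all calls of a window. A table of promoters gave the strand of Bmp4, Chrd, Grem1 and Cer1, for which the ends can be called 5′ (the start) and 3′. For Bmp2, Bmp7, Nog, Fst, Lefty1 and Lefty2 the ends are called lower and upper by their coordinate. Of 27 possible windows, 19 held the required 3 positions, 1 held fewer and 7 held none. Nog, Cer1 and Lefty1 are too short to have a body by this definition. The 95% Wilson intervals of levels summed over the columns cover counting error only, and they are too narrow where a read spans several positions.

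Bmp4 was lowly methylated in the measured blocks from upstream of its start to the middle of the gene, and highly methylated in the block near its 3′ end. Bmp4 lies on chromosome 14 from 46383525 to 46390669 (mm10), on the reverse strand, and 119 positions in 7 blocks were measured, a block being positions no more than 150 bp apart. The 5′ end had a level of 7.03% (interval 6.49 to 7.60%, 22 positions), with a lowest column at 4.49%, a median of 7.20% and a highest column at 9.41%. The body had 11.2% (interval 10.7 to 11.6%, 55 positions), with columns from 5.85% through a median of 9.80% to 18.7%. Of these positions, 47 lie in 1 block of 333 bp. The 3′ end had 72.1% (interval 71.5 to 72.7%, 42 positions), with columns from 66.5% through a median of 72.5% to 77.5%. The columns of the 3′ end did not overlap those of the other windows, whereas those of the body and the 5′ end overlapped. Within the same column the 3′ end exceeded the 5′ end by 57.3 to 70.2 percentage points, in 10 of 10 columns, and the body exceeded the 5′ end in 8 of 10.

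The change in level lay between a pair of measured blocks inside the gene. The block that ends 5003 bp past the start, at 46385666 to 46385998, had 12.3% (columns 6.76 to 19.8%, 47 positions). The next one began 1058 bp further on, from 6061 to 6574 bp past the start at 46384095 to 46384608, and had 72.1%. No position between them was measured, so where the level changes in that gap is not resolved. The 2209 bp between the blocks that face each other at 2462 and 4671 bp past the start held no measured position either. Closer to the start, the block at 2370 to 2462 bp past it had 2.23% (columns 0 to 5.88%) and the one at 1483 to 1525 bp 2.60% (columns 0.437 to 5.08%). Around the start itself, from 86 bp upstream to 129 bp downstream, 9 positions had 8.08% (columns 2.73 to 17.5%). Further upstream, at 1005 to 1157 bp before the start, 4 positions had 9.51% (columns 5.31 to 16.5%). A long non-coding RNA gene, Gm15222, overlaps 13 of the positions, in the blocks at 2.23% and 2.60%. The gene table gives no exons, so exons, introns and untranslated regions are not assigned.

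**Figure D1:**
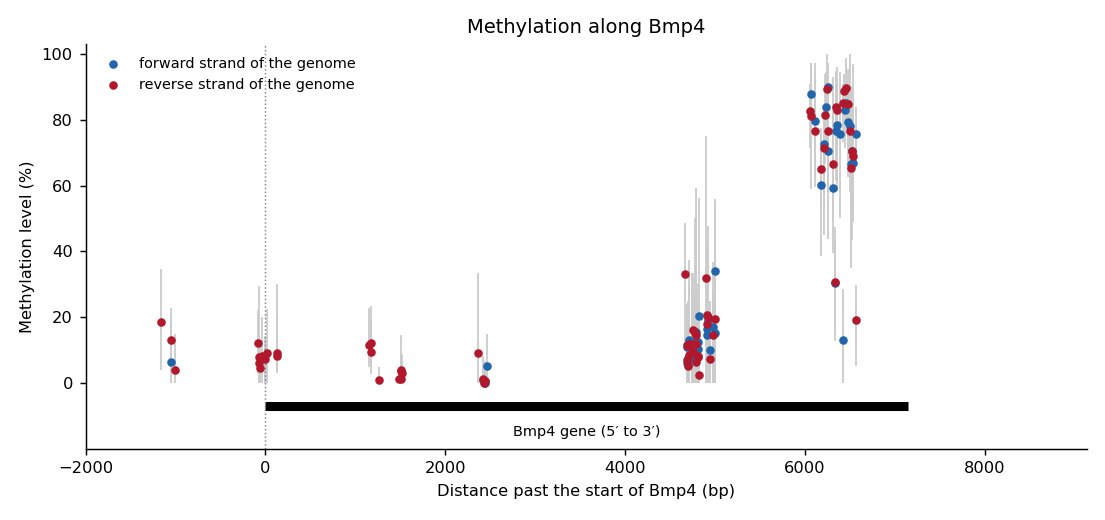
Methylation level in percent (y axis) of each of the 119 measured positions against distance past the start of Bmp4 in bp (x axis), with all columns summed, coloured by genome strand; grey lines span the lowest and highest of the 10 columns and the black bar is the gene. The blocks stay under 20% up to the one at 4671 to 5003 bp, where single positions reach 34.1%. In the block at 6061 to 6574 bp, positions range from 13.0%, at a CpG whose strands differ, to 89.9%.

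Single positions in the highly methylated block were not uniform. The CpG at 46384329 stood out on both strands, at 30.3% on the forward and 30.8% on the reverse strand, while the highest position of the block, at 46384415, had 89.9%. At the CpG of 46384244 and 46384245, the forward cytosine had 13.0% (columns 0 to 28.6%) and the reverse one 84.9% (columns 73.1 to 90.9%). At 46384095 and 46384096 the forward cytosine had 75.6% and the reverse one 19.1% (columns 5.08 to 29.8%). These were the only 2 of 295 CpGs measured on both strands in the 10 genes, or 0.678%, whose strands differed by more than 20 points, against 2.08% of 647386 such autosomal CpGs. Across all 295 CpGs the median difference between strands was 1.63 points. What makes the strands of these 2 CpGs differ was not tested. The level of the 3′ end of Bmp4 was 71.1% from the forward strand alone and 73.1% from the reverse strand alone.

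The 250 bases before the start of the 4 genes with a known strand are shown because the density of CpGs there differs among them. CpG dinucleotides are in capitals, sequences run 5′ to 3′ on the gene's strand and are taken from RefSeq, build GRCm38, which corresponds to mm10. Bmp4 is chr14:46390670-46390919 on the reverse strand, Chrd chr16:20732877-20733126 on the forward strand, Grem1 chr2:113758649-113758898 on the reverse strand and Cer1 chr4:82885152-82885401 on the reverse strand.
Bmp4: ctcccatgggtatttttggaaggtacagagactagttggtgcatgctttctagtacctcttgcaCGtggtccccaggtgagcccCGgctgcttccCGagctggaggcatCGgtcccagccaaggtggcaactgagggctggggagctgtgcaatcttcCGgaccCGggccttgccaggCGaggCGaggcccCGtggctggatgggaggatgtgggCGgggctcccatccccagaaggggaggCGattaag
Chrd: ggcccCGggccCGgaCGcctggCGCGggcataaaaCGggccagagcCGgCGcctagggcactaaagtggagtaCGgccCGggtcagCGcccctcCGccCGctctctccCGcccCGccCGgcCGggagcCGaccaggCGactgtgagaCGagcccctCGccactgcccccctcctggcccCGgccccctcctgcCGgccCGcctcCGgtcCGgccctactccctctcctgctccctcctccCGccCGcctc
Grem1: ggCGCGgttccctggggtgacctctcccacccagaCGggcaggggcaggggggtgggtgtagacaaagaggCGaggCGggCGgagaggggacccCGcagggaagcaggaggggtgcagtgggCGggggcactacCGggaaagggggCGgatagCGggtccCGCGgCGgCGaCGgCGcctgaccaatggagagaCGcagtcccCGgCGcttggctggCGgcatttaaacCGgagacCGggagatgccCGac
Cer1: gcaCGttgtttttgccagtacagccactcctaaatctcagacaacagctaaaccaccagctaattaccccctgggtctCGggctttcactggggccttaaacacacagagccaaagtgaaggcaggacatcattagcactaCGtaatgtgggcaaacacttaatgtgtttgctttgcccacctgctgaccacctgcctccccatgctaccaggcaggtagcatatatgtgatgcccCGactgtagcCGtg

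The motif searched was CG, which reads the same on both strands. Bmp4 had 11 CpGs in these 250 bases, Chrd 28, Grem1 24 and Cer1 5, against a median of 6 over 31396 autosomal promoters. As many CpGs as in Cer1 or fewer were found in 49.2% of those promoters, and as many as in Chrd or more in 7.84%. Of the 11 CpGs of Bmp4, 6 were measured, and all lie within 86 bp of the start. None of the CpGs printed for Chrd, Grem1 and Cer1 was measured, so the levels of these genes describe neighbouring sequence. Over all genes with a measured 5′ end, the median level of that end was 48.0% with 0 to 2 CpGs in these bases, 24.3% with 3 to 7, 4.80% with 8 to 15 and 2.26% with 16 or more.

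Bmp2, the closest relative of Bmp4 among these ligands, was nearly unmethylated wherever it was measured. It lies on chromosome 2 from 133552159 to 133562896, and all 117 positions had levels under 20%, the highest at 14.5%. The lower end had 2.02% (interval 1.86 to 2.21%, 80 positions), with columns from 1.58% through a median of 1.79% to 3.48%. The body had 3.69% (interval 3.35 to 4.05%, 37 positions), with columns from 2.61% to 4.74%. Its measured positions reach only 2648 bp past the lower end, and the upper end held none. A highly methylated stretch like that of Bmp4 was thus not seen in Bmp2, and most of the gene was not covered.

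Bmp7, a ligand with roles in kidney and eye development, had a sharp contrast between its ends. It spans 72310 bp of chromosome 2 from 172868012 to 172940321, and 332 positions in 25 blocks were measured. The upper end had 2.52% (interval 2.41 to 2.65%, 156 positions), with columns from 1.95% through a median of 2.40% to 3.83%. The lower end had 54.2% (interval 53.0 to 55.3%, 19 positions), with columns from 41.7% through a median of 53.6% to 60.1%, and the body 65.7% (interval 65.3 to 66.0%, 157 positions), with columns from 63.1% to 68.2%. The lower end exceeded the upper end in 10 of 10 columns, by 39.0 to 57.1 points. Of 19 blocks that lie wholly in the body, 17 had levels of 50% or more, and the lowest, 5788 to 5888 bp inside the upper end, had 43.6%. On both sides of the upper end, blocks from 800 bp inside to 493 bp outside had 1.17% and 0.876%. A block 1721 to 1930 bp outside it had 45.0% (columns 39.9 to 60.2%, 6 positions). The lncRNA gene Gm40010 overlaps 33 measured positions of Bmp7.

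Among the antagonists that bind BMPs or activin, 4 of 5 measured ends had levels under 20%. Over the ends of all autosomal protein-coding genes, 53.8% were under 20%. Nog encodes noggin, which binds BMPs, and lies on chromosome 11 from 89300638 to 89302559. Its upper end had 1.97% (interval 1.85 to 2.09%, 108 positions), with columns from 1.39% to 2.37%, and its lower end 10.2% (interval 9.73 to 10.6%, 35 positions), with columns from 8.40% to 12.2%. Nearly all positions of the lower end, 34 of 35, lie 1353 to 1773 bp outside the gene.

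Fst encodes follistatin, which binds activin, and lies on chromosome 13 from 114452262 to 114458989, with low levels at its upper end and higher ones further inside. Its upper end had 4.32% (interval 4.10 to 4.56%, 60 positions), with columns from 3.26% through a median of 4.17% to 5.41%. Further into the gene the blocks had 21.6%, then 50.9%, 59.8% and 56.5%, the last 2134 to 2217 bp from the lower end. The body as a whole had 44.6% (interval 43.4 to 45.8%, 18 positions), with columns from 38.5% to 49.8%. The lower end held no position. All 60 positions of the upper end lie in the lncRNA gene Gm41074, and the 3 outermost, with 9639 calls, had 7.12%.

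Grem1 encodes gremlin, a BMP antagonist, on chromosome 2 from 113748675 to 113758648, and its 5′ end had 17.4% (interval 16.9 to 18%, 34 positions). The columns ranged from 13.7% through a median of 17.4% to 23.6%. All 34 positions lie inside the gene, 645 to 1252 bp past its start. The block farther from the start had 17.7% and the pair of positions nearer to it 9.84%. From the forward strand alone the level was just above 20%. The body held only 2 positions, at 38.5%, and the 3′ end none.

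Chrd encodes chordin, a BMP antagonist of the node, and its value depends on which start is used. By the gene table it lies on chromosome 16 from 20731425 to 20742384, and the 5′ end so defined had 48.0% (interval 45.7 to 50.4%) over only 4 positions. Its columns ranged from 34.6% through a median of 48.9% to 57.1%. These positions lie upstream of Chrd and inside Thpo, a protein-coding gene that overlaps 37 of the 45 measured positions of Chrd. The promoter table places the start 1702 bp further on, at 20733127. Around that start the level was 11.5% over 41 positions, which lie 1027 to 1458 bp past it and form the body in the first definition (interval 10.9 to 12.0%, columns 8.91 to 16.6%). This second value was added after the levels were seen.

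The genes that act against Nodal had the highest measured ends outside Bmp4 and Bmp7, apart from the start of Chrd by the gene table. Cer1 encodes cerberus, which binds Nodal and BMPs, and lies on chromosome 4 from 82881751 to 82885151. Its 5′ end had 67.5% (interval 66.1 to 68.9%, 13 positions), with columns from 55.2% through a median of 66.9% to 75%. The 7 positions nearest to the start, 228 to 473 bp past it, had 66.3% (columns 47.8 to 76.9%). All 13 positions were above 50%, from 52.5% to 77.1%. Among all genes 10.8% of 11269 measured 5′ ends had 50% or more, and 2.54% were at or above the level of Cer1. Cer1 has only 5 CpGs in the bases printed before its start, and high 5′ ends were more frequent among genes like it. Of the 1905 genes with 3 to 7 such CpGs and a measured 5′ end, 27.2% had 50% or more. Their upper quartile was 51.9%, below the level of Cer1.

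Lefty1 and Lefty2 encode secreted inhibitors of Nodal signalling and both lie on chromosome 1. Lefty1, from 180935022 to 180938401, had 30.1% at its lower end (interval 29.1 to 31.1%, 22 positions), with columns from 24.8% through a median of 30.6% to 37.6%. Levels of single positions ranged from 16% to 64.2%, the latter at the lower end itself, and all 22 lie in the lncRNA gene Gm39715. Lefty2, from 180893108 to 180899107, had 23.4% at its lower end (interval 22.9 to 24.0%, 47 positions), with columns from 20.8% through a median of 22.4% to 28.6%. The body of Lefty2 had 58.9% (interval 56.2 to 61.6%, 6 positions), with columns from 46.2% to 72.1%. The positions of its lower end lie 803 to 1773 bp inside the gene. With windows of 1000 bp the 3 of them that remain had 51.1%, and the rest counts as body, at 23.0%. Lefty1 and Lefty2 are similar in sequence, and reads that match both could have been split or left out, which was not tested.

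**Figure D2:**
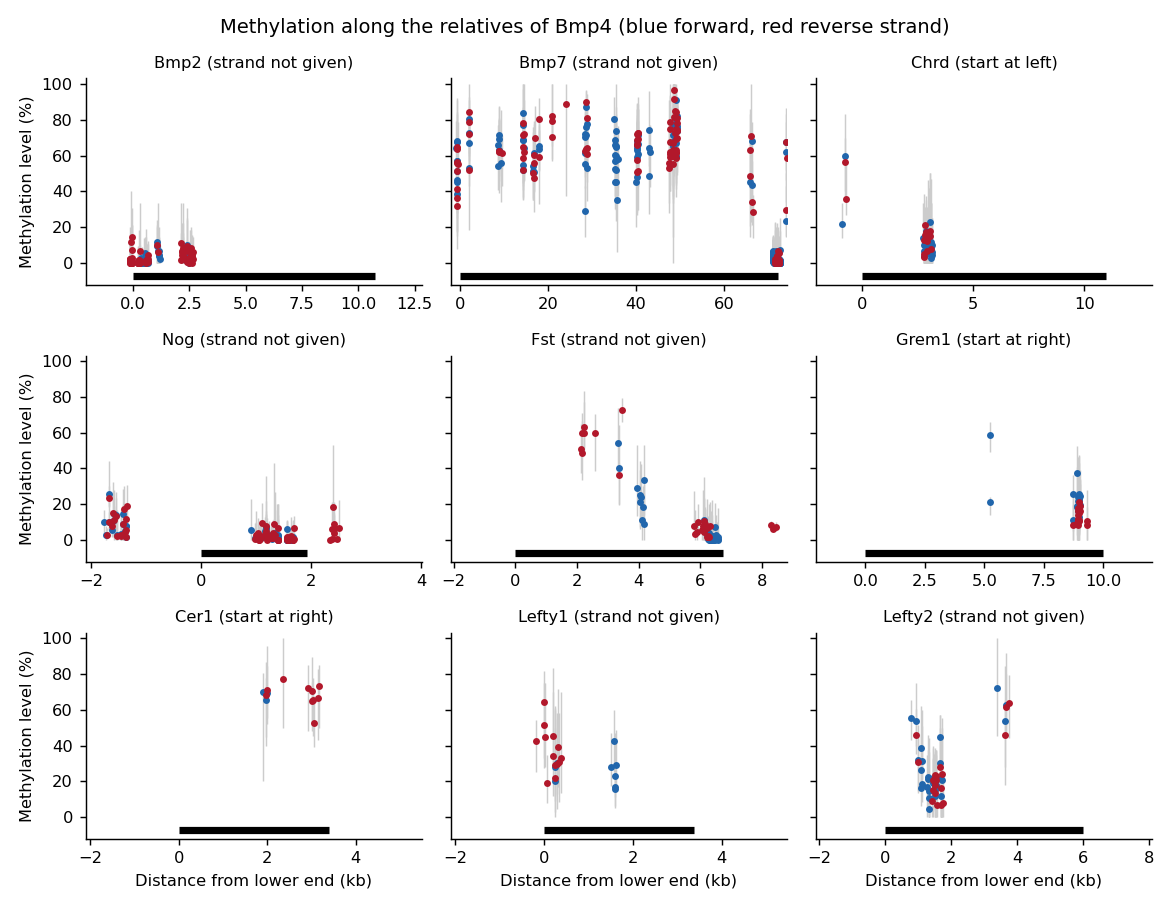
Methylation level in percent (y axis) of each measured position of the other 9 genes against distance from the lower end in kb (x axis), with all columns summed; grey lines span the lowest and highest of the 10 columns and black bars are the genes. Bmp2 stays under 20% at every position and Nog at 141 of 143, Bmp7 and Fst change from high to low inside the gene towards the upper end, and Cer1 lies between 52.5% and 77.1%.

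Set beside its relatives, the 5′ end of Bmp4 was low but not the lowest. It lay below the 5′ end of Cer1 by 46.3 to 66.1 points and below that of Grem1 by 6.57 to 16.7 points within the same column, in 10 of 10 columns each, and the ranges over columns did not overlap. Against the 4 positions at the gene-table start of Chrd it was lower by 25.2 to 49.9 points. With the promoter-table start of Chrd the difference of the summed levels was -4.44 points, from -9.51 to 0.494 points over the columns, and the ranges overlapped. Bmp4 was then lower in 9 of 10 columns, so its difference from Chrd rests on which start is used. The difference was in the other direction against the lower end of Bmp2, where Bmp4 was higher by 2.91 to 7.75 points, and against the upper end of Bmp7, where it was higher by 2.42 to 7.03 points, in 10 of 10 columns each. The lower end of Nog was higher than the 5′ end of Bmp4 in 9 of 10 columns and their ranges overlapped, so this pair is not set apart. Against the upper end of Nog, Bmp4 was higher by 2.69 to 7.28 points. Against the lower end of Bmp7, it was lower by 34.4 to 52.3 points. Each held in 10 of 10 columns, so for Nog and Bmp7 the direction depends on the end taken. The 5′ end of Bmp4 was above the upper end of Fst in 10 of 10 columns, with overlapping ranges. It was below the lower ends of Lefty1 and Lefty2 in 10 of 10 columns each. For the body, Bmp4 was above Bmp2 by 1.74 to 15.9 points and below Bmp7 by 47.4 to 59.3 points, in 10 of 10 columns each. Bmp4 and Chrd had overlapping body levels, with Bmp4 higher in 3 columns and lower in 7. The 3′ end of Bmp4 exceeded the lower end of Bmp7, the highest end of the genes with unknown strand, by 13.3 to 35.8 points in 10 of 10 columns. No relative had a measured end known to be its 3′ end.

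**Figure D3:**
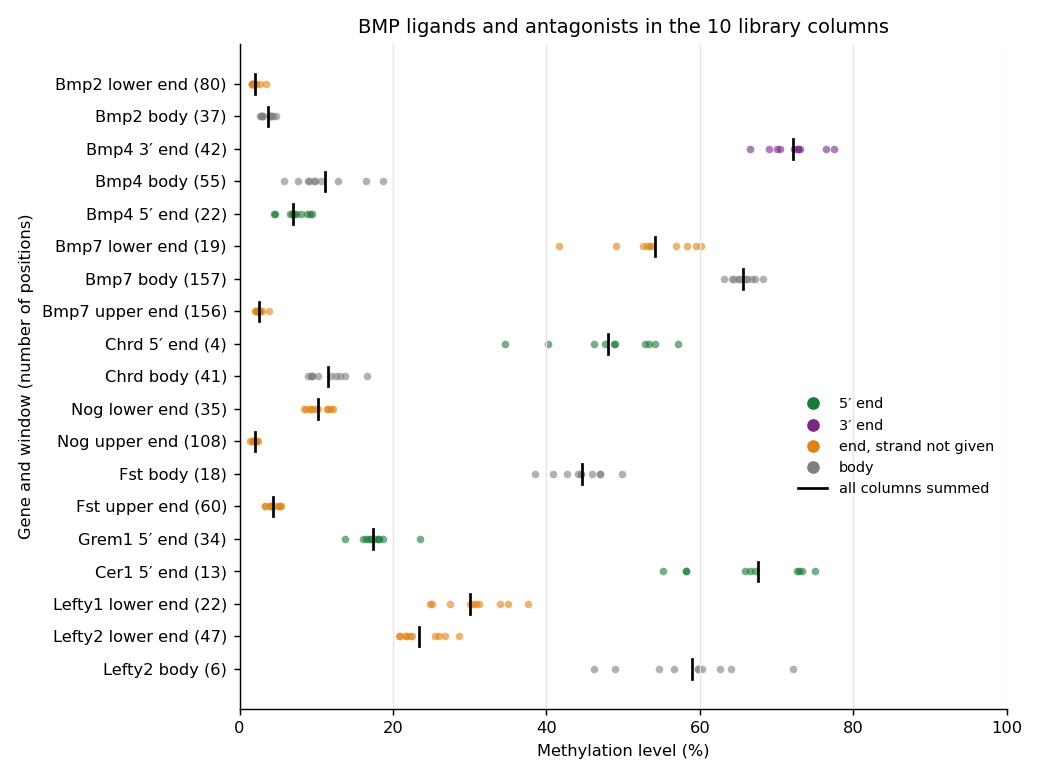
Methylation level in percent (x axis) of the 19 measured windows of the 10 genes (y axis, with the number of positions), 1 point for each of the 10 library columns; black ticks mark the level of all columns summed. The 3′ end of Bmp4 and the 5′ end of Cer1 lie above 55%, and the ends of Bmp2 and Nog and the upper ends of Bmp7 and Fst below 13%.

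Against all autosomal protein-coding genes, the high level at the 3′ end of Bmp4 was common and its low body was not. Of 6356 measured 3′ ends, 66.7% had 50% or more, the median was 60.5%, and 28.9% were at or above the level of Bmp4. Of 5224 genes with both ends measured, 51.1% had a 5′ end under 20% together with a 3′ end of 50% or more, as Bmp4 did. The median of 11269 measured 5′ ends was 4.53%, and 41.9% were at or above the level of Bmp4. Of the 4 genes with a measured 5′ end, Bmp4 and Grem1 were under 20%, against 75.9% of all genes. So was Chrd with its promoter-table start, over the positions that count as its body by the gene table. Over all 13 measured ends of the 10 genes, 7 were under 20%, 3 between 20 and 50% and 3 at 50% or more, against 53.8% of 22231 ends under 20% and 30.7% at 50% or more. The median was 17.4%, against 14.6%, so the ends as a set were close to the background.

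Of the 6 bodies measured, those of Bmp2, Bmp4 and Chrd were under 20%, against 5.37% of 12437 bodies. The median of these 6 was 28.0%, against 61.7%, and 75.8% of all bodies had 50% or more. Shorter genes have less body away from their ends, and among genes of 5000 to 15000 bp, a range set after the levels were seen that holds each of these 3 genes, 11.6% of 2510 bodies were under 20% and 68.2% at 50% or more. In Bmp2, the positions of the body lie within 2648 bp of the lower end, which was low. The 41 positions of the body of Chrd lie within 1458 bp of its promoter-table start. They are the same positions that give its 5′ level by that start, so the low body and the low 5′ end of Chrd are 1 measurement. In Bmp4 the low block reaches 5003 bp past the start. With windows of 500 bp the body of Bmp4 takes in the 3′ block and had 39.9%.

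**Figure D4:**
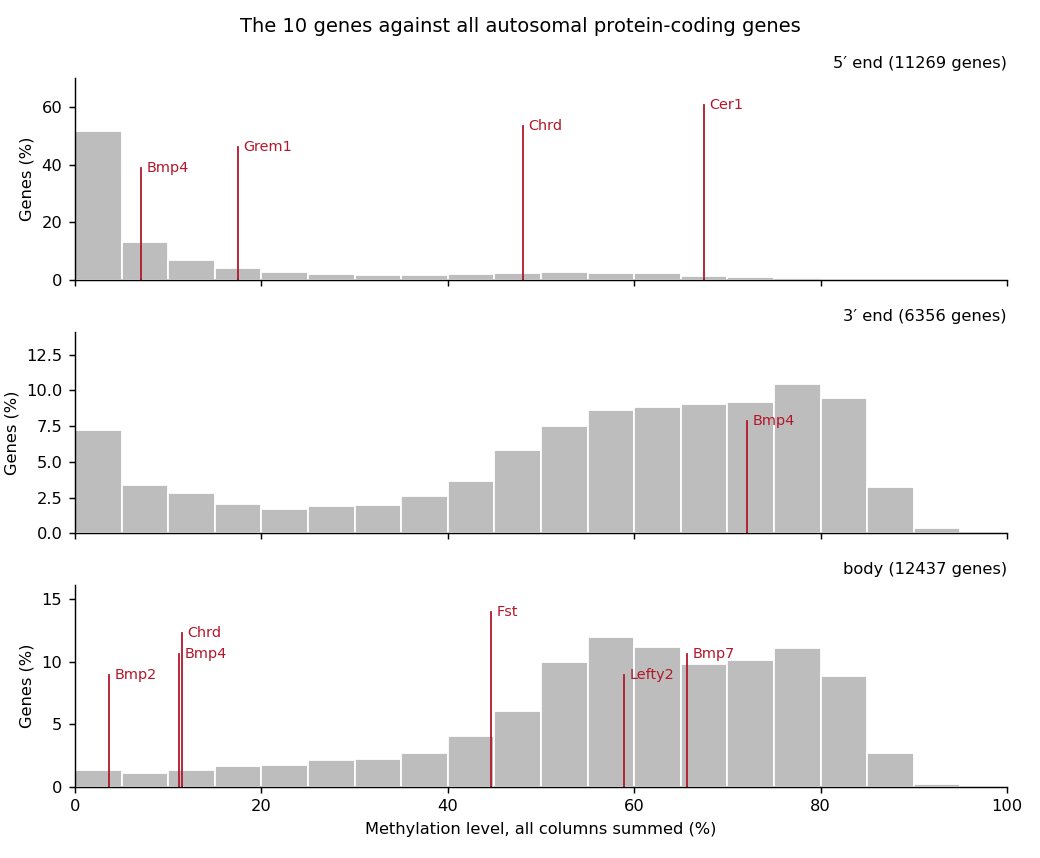
Share of autosomal protein-coding genes in percent (y axis) by level of all columns summed in bins of 5 points (x axis), for 5′ ends, 3′ ends and bodies; red lines mark the 10 genes where measured, and their heights only separate the names. Bmp4 lies in the low part of the 5′ ends and of the bodies and within the broad high part of the 3′ ends.

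No library column was the highest or the lowest in most of the 19 windows, though columns 6 and 8 were never the highest and columns 4 and 7 never the lowest. Column 2 was the highest in 5 of 19 windows and the lowest in 3, and column 9 was the highest in 3 and the lowest in 3. At the 3′ end of Bmp4, column 9 was the highest and column 5 the lowest, while in the body column 2 was the highest and column 3 the lowest. The level over all autosomal positions ranged from 40.2% in column 6 to 44.5% in column 9. The spread between columns was also measured for each position as a chi-square statistic of the calls in the 10 columns divided by its degrees of freedom, where 1 is the value for counting error alone. Positions at 0 or 100% in all columns have no such value and were left out. It averaged 3.04 at the 3′ end of Bmp4, 3.18 in its body and 1.64 at its 5′ end, against 2.36 over all autosomal positions. It was 1.80 at the lower end of Bmp7, 2.92 at the 5′ end of Grem1 and 2.04 at that of Cer1. Any difference between the control and arsenic groups is part of this spread and cannot be told apart in it.

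The rest of the pathway was examined in 65 further genes, of which 60 had a measured end of the kind compared: the 5′ end for 43, and for 17 without a known strand the end with more positions, which may not be the start. Of the 60, 45 were under 20%, 7 between 20 and 50% and 8 at 50% or more, with a median of 5.54%. No share over all genes was computed with ends picked in this way. Of the 43 at a known 5′ end, 35 were under 20% and 5 at 50% or more, against 75.9% and 10.8% of all genes. Among the genes listed as ligands, which include the protease Bmp1, 10 of 17 were under 20% and 4 at 50% or more. At known 5′ ends, 7 of 11 ligands were under 20% and 3 at 50% or more. Bmp8a had the lowest level at 1.96%, Bmp6 had 2.58%, Gdf7 8.96% and Bmp8b 11.9%. Nodal, the ligand that Cer1, Lefty1 and Lefty2 oppose, had 6.43% at its 5′ end (46 positions). Gdf1, a partner of Nodal, had 21.4%, Bmp5 50.8% over 6 positions, Gdf2 61.2% and Tgfb2 the highest level at 74.9%. At ends without a strand, Gdf6 had 3.09%, Bmp3 13.0%, Bmp1, a protease that cleaves chordin, 38.7%, Gdf3 39.3% and Gdf5 59.2%, while the 5′ end of Bmp10 was not measured.

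Of the receptors and co-receptors, 10 of 12 were under 20% and none at 50% or more, with 2 of these ends lacking a strand. At known 5′ ends, 9 of 10 were under 20% and none at 50% or more, beside 75.9% and 10.8% of all measured 5′ ends. Differences between the roles were not tested, and these shares, from few genes, are near that background. Acvr2b, a type II receptor, had 0.835%, and Tdgf1, the Nodal co-receptor Cripto, had 31.5%. All 8 Smads, which carry the signal to the nucleus, were under 20%, from 1.07% in Smad2 to 14.4% in Smad5. Of 10 target genes, 9 were under 20%, with Id2 at 0.747% and Id1 the highest at 21.4%, at an end without a strand. The other antagonists and modulators had 8 of 13 under 20% and 4 at 50% or more, from 1.72% in Twsg1 to 77.6% in Tll2, a protease related to Bmp1, over 8 positions. At known 5′ ends alone, 5 of 5 Smads and 7 of 7 target genes were under 20%, beside the same 75.9% of all measured 5′ ends. Of the other antagonists and modulators, 7 of 10 were under 20% and 2 at 50% or more. With windows of 1000 bp, 2 of the pathway's known 5′ ends were at 50% or more in place of 5, and the number of ends measured can differ.

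**Figure D5:**
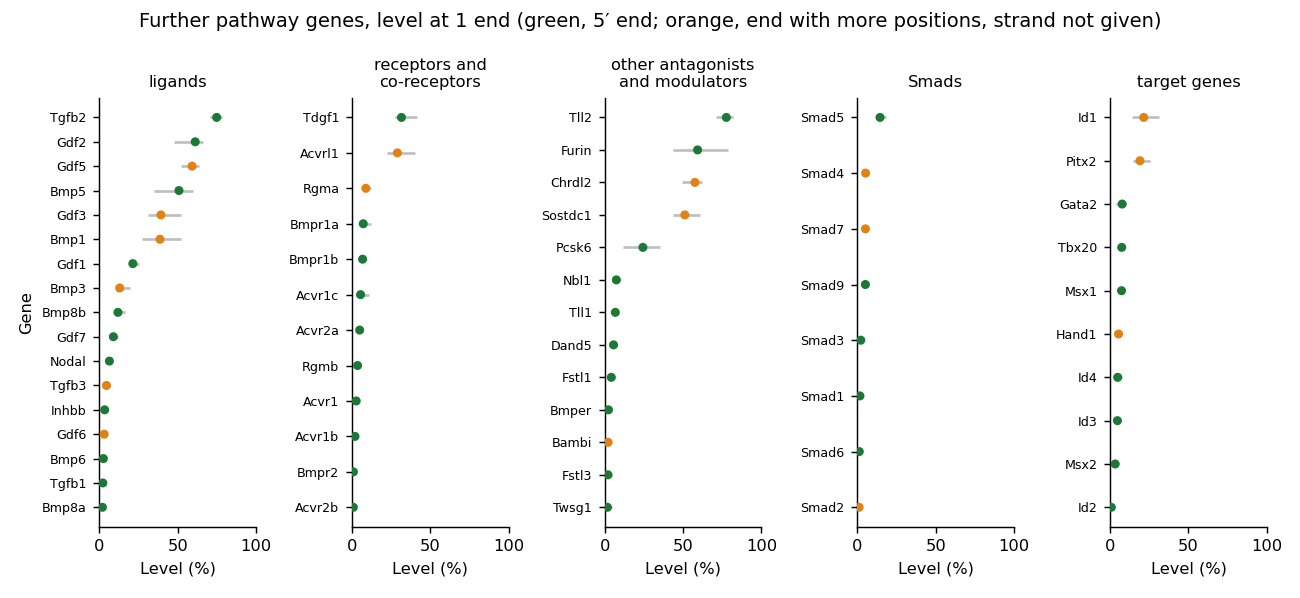
Methylation level in percent (x axis) at 1 end of 60 further genes of the pathway (y axis) by role, with all columns summed as points and the lowest to highest of the 10 columns as lines; green points are 5′ ends, orange points the end with more positions of genes without a known strand. Receptors, Smads and target genes lie below 35%, while 4 ligands and 4 antagonists or modulators lie at 50% or more.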

How the data were processed

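DNA of mouse embryos was measured by reduced representation bisulfite sequencing. Trim Galore, Bismark, methylKit and the build mm10 are named, per the submitters' processing notes; their versions and settings were not stated there. The deposited values are raw counts per cytosine position, namely coverage, methylated and unmethylated calls, per the file headers, and they were used without normalization. Of 2137826 rows, 2 that repeated a position were left out. Both calls added up to the coverage at every position, and the lowest coverage was 10 reads, so values describe positions covered in every column. The median coverage of a position ranged from 26 to 47 reads over the columns.

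None of the 10 library columns was tied to a sample, so the planned comparison of arsenic with control was not run. Gene positions came from RefSeq (GRCm38) and strands from its promoter table, which holds 4 of the 10 genes and not Bmp2, Bmp7, Nog, Fst, Lefty1 and Lefty2. Of 166449 measured positions inside promoter sequences, 166443 fell on a CG. Windows reached 2000 bp on each side of an end, a position near both ends went to the nearer one, and 3 positions were required. Low is under 20% and high 50% or more. Named are the 10 genes, the lowest and highest pathway gene of each role, the BMP, GDF and Nodal ligands, and overlapping genes. Id3, Msx1, Smad3 and Tgfb1 were chosen after their values were seen. The genes, lists and rules were chosen with earlier results of these data known. The window code was tested on simulated data. Alternatives covered window size, coverage, most covered positions, weighting, strand, overlapping genes, number of positions, thresholds and leaving out each column. Python 3.11.15, numpy 2.4.6, scipy 1.17.1, pandas 2.3.3 and matplotlib 3.10.9 were used.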

Additional observations from a re-analysis of the deposited data

Results flagged for a closer look

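At the 5′ end of Grem1, library column 3 had a level of 23.6%, the next highest column 18.7% and the median was 17.4%. The gap to the next column was 0.497 of the whole range, above the 95% critical value of Dixon's test for 10 values. Of 19 windows examined in this way, this was the only one with a column set apart, and chance flags about 1 in 20. Column 3 had the lowest summed coverage, 73509873 calls. The part of depth in the high value was not tested.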

How the results depend on the processing

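No paired analysis was possible because the columns carry no sample or group. Leaving out each column in turn kept every level of the 19 windows in its class (under 20%, 20 to 50%, 50% or more), with the body of Bmp4 between 10.3 and 11.6%. Recomputed were the differences of the 5′ end of Bmp4 from the 5′ ends of Cer1, Grem1 and Chrd, the lower end of Bmp2 and the upper end of Bmp7. The others were its body against Bmp2 and Bmp7, its 3′ end against the lower end of Bmp7, and its 3′ against its 5′ end. All of these kept their sign in the summed levels under every alternative that measured both windows. The remaining differences, among them those from Nog, Fst, Lefty1, Lefty2 and the body of Chrd, were not recomputed. The ends of Bmp4 differed by 64.7 to 65.8 points with a column left out. The median level over the windows, 17.4%, was 11.5% with windows of 500 bp, 7.87% with the outer 2000 bp alone, 15.8% at a minimum of 20 reads, 13.1% from the reverse strand and 14.9% without positions in other genes. With windows of 1000 bp, the difference of the bodies of Bmp4 and Bmp7 was -44.5 points. With 500 bp it was -15.5 points, that of the bodies of Bmp4 and Bmp2 36.8 points and that of the 5′ end of Bmp4 and the upper end of Bmp7 7.07 points. The 3′ end of Bmp4 had no position at 500 bp and none in the outer 2000 bp. From the reverse strand, the 5′ ends of Bmp4 and Grem1 differed by -6.40 points. With the promoter-table start of Chrd, an alternative chosen after seeing the data, the 5′ ends of Bmp4 and Chrd differed by -4.44 points. Single levels changed class for Lefty2 at 1000 and 500 bp, Bmp4 body at 500 bp, Grem1 from the forward strand, the lower end of Bmp7 and the body of Fst from the reverse strand (49.9% and 55.9%), and Chrd at 20 reads (50.2%) and with the promoter-table start.

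Counts of the pathway's 5′ ends at 50% or more, 5 of 43, were 2 with windows of 1000 bp, 2 with at least 10 positions, 3 with limits of 10 and 60%, and 3 at 20 reads. The median of the pathway's 5′ ends, 5.06%, was 2.62% with 1000 bp. Over all genes, high 5′ ends numbered 1217 of 11269, and 781 with 1000 bp, 638 with 10 positions and 648 with the other limits. High 3′ ends numbered 4239 of 6356, and 2653 with 1000 bp and 2301 with 10 positions. Low bodies numbered 668 of 12437, and 1269 with 1000 bp and 299 with the other limits. Genes low at the 5′ and high at the 3′ end numbered 2668 of 5224, and 1637 with 1000 bp, 1421 with 10 positions and 1720 at 20 reads. Window size, required positions and required reads also change how many windows are measured. Shares under the alternatives are not given, so these counts do not show a change in frequency. The causes of these changes were not tested.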

Other observations

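In the wider pathway 10 of 22 measured 3′ ends had 50% or more, against 66.7% of all genes. By role these were 3 of 5 ligands, 2 of 3 receptors, 1 of 6 antagonists and modulators, 4 of 4 Smads and 0 of 4 target genes, and differences between roles were not tested. The Smads had a median of 72.3%, among them Smad3 at 82.9% against 2.12% at its 5′ end. The target genes had a median of 8.66%. Id3, a transcriptional inhibitor induced by BMP signalling, had 4.64% at the 5′ and 3.82% at the 3′ end, and the homeobox gene Msx1 7.27% and 6.12%. Among the ligands, Gdf7 was low at both ends, with 8.96% and 2.55%, whereas Bmp8b had 11.9% and 78.1%, a pair of values like those of Bmp4. The 3′ ends of Smad3 and Msx1 rest on 3 positions each. Id3 spans 1571 bp, Msx1 4095 bp, Gdf7 4037 bp and Smad3 111229 bp. The ends of Id3, Msx1 and Gdf7 are thus closer together than those of Smad3. The ligand Tgfb1 was also low at both ends, with 2.24% at the 5′ and 12.6% at the 3′ end (44 positions). It spans 18076 bp, against 21787 bp for Bmp8b, which was high at its 3′ end. The part of gene length in this was not tested.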
